A study of Mus musculus with 23 samples.

Results

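The subject is the set of single-copy CpG shore fragments of the mouse genome as read by AIMS-seq in 9 groups of muscle-lineage cells, muscle tissue and embryonic stem cells. A fragment is the interval between neighbouring CCCGGG sites. Members were chosen from the deposited table of raw reads as fragments on chromosomes 1 to 19 that are over 20 and under 2000 bp long, that the table marks as CpG shore, and that carry no repeat element. The rule uses no read count, and it found 2493 of the 173430 fragments in the table. The 13765 single-copy CpG island fragments and the 11131 single-copy fragments outside islands and shores, called open sea below, of the same lengths and chromosomes served for comparison.

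In AIMS-seq, SmaI first cuts CCCGGG sites that are unmethylated and leaves blunt ends, and XmaI then opens the methylated sites with cohesive ends to which adaptors are joined. A read therefore comes from a molecule methylated at both ends of a fragment, and levels are given as reads per 1000000 reads of a library (RPM), not as shares of methylated molecules. The 23 libraries hold embryonic stem (ES) cell lines of 129 backgrounds (CGR8 of 129Sv with a technical repeat that was added to it, RD1 of 129X1/SvJ and E14Tg2 of 129/Ola, n = 3 lines). They also hold primary myoblasts proliferating at passage 8 to 10 from cultures 21, 27 and 26 (libraries 1, 2 and 3), and the same cultures after 1, 2 and 4 days in differentiation medium with little serum. Passage 0 myoblasts were available from cultures 26 and 27 (libraries 1 and 2). Freshly isolated muscle precursors, sequenced without culture, make up 1 library of uninjured muscle and 1 of muscle 3 days after cardiotoxin, and whole skeletal muscle makes up 3 libraries. All cultured, passage 0 and freshly isolated cells were C57BL/6J, muscle libraries 1 and 2 were of mixed 129Sv/C57BL/6J background and muscle library 3 was C57BL/6J. Strain and cell type cannot be told apart in comparisons with ES cells. In muscle against myoblasts, muscle libraries 1 and 2 differ in strain from all myoblasts, so strain is partly mixed with cell type there too. Muscle tissue is a mixture of cell types in which a share of cells and a level per cell cannot be told apart. The labels do not say whether the muscle libraries came from separate animals, so p-values measure the spread between these libraries.

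CpG islands are stretches with many CpG dinucleotides, most of which stay unmethylated in normal cells, and many of them hold gene promoters. Shores are the flanks of islands, where CpG density falls off towards the mostly methylated bulk of the genome. Methylation of shores is known to vary between tissues more often than that of island centres.

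The 7 members below are printed because they are the members of at most 300 bp, outside annotated untranslated regions, among those with the largest changes named below. Zfp30 was higher in myoblasts and muscle than in ES cells, and Slitrk1 was lower in myoblasts than in ES cells. Prtn3, Acaa1a and Tmtc1 were higher in muscle than in myoblasts, and Yif1a and Kif21a were lower. All are given 5′ to 3′ on the plus strand of mm9, with the CCCGGG site at each end in capitals.
Zfp30, chr7:30576043-30576307: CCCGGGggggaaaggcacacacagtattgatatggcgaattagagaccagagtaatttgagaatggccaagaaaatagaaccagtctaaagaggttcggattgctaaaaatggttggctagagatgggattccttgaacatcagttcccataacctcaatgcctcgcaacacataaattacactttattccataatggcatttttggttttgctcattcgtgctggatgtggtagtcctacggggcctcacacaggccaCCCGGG
Slitrk1, chr14:109311174-109311471: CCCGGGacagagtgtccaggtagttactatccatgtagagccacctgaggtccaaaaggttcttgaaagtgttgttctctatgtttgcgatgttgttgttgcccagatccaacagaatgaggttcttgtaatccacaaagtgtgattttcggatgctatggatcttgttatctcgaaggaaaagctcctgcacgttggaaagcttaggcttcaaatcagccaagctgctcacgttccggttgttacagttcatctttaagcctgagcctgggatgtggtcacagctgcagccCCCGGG
Prtn3, chr10:79345237-79345381: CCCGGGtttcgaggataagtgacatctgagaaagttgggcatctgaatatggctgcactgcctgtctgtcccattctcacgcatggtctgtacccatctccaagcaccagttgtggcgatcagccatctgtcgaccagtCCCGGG
Acaa1a, chr9:119249777-119250041: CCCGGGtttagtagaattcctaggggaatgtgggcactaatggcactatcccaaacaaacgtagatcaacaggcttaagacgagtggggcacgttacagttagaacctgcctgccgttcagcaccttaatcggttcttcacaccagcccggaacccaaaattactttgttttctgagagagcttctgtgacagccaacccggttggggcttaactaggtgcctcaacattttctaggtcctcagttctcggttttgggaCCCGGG
Tmtc1, chr6:148391468-148391744: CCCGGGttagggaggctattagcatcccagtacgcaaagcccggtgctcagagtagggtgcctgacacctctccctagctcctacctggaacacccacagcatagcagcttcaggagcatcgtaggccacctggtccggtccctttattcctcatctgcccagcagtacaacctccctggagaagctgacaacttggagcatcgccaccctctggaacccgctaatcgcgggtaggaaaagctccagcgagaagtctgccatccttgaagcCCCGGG
Yif1a, chr19:5089434-5089650: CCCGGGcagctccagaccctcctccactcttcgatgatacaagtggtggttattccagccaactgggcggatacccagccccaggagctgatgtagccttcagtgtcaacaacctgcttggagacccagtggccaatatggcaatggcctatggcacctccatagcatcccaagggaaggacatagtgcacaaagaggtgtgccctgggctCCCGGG
Kif21a, chr15:90878011-90878233: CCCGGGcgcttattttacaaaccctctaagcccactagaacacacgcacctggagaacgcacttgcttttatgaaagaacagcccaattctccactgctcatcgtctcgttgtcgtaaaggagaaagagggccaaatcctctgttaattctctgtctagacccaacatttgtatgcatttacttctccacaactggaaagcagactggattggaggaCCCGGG
Between their sites, Acaa1a, Tmtc1 and Prtn3 hold 8, 9 and 4 CpG dinucleotides in fragments of 259, 271 and 139 bp. Kif21a (217 bp) holds 6 and Yif1a (211 bp) holds 2. Zfp30 (259 bp) holds 5 and Slitrk1 (292 bp) holds 6.

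The label was checked against the genome sequence. Of the 2493 shore fragments, 99.96% lay within 2000 bp of a CpG-rich stretch, defined as 250 bp or more in 200 bp windows with at least 50% GC and an observed to expected CpG ratio of at least 0.6, and 65.1% touched such a stretch. Open sea fragments touched one in 24.3% of cases and lay within 2000 bp of one in 45.6%. The median shore fragment was 503 bp long (quartiles 177 and 1119 bp) with 56.6% GC, 3.61 CpG per 100 bp and an observed to expected CpG ratio of 0.37. The ratio was 0.77 for island and 0.23 for open sea fragments, so the shore class lies between them but a majority of it also overlaps sequence as CpG-rich as an island. By GENCODE annotation on mm9, 1371 members (55.0%) overlap a promoter (2000 bp upstream to 500 bp downstream of a protein-coding start), 385 an exon, 458 an intron and 279 lie between genes. Promoters held 80.6% of island and 15.6% of open sea fragments.

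Libraries held 6237851 to 24505365 reads in all, of which 228059 to 780957 fell in shore fragments. In all, 2076 members had a read in some library and 417 had none in any. The day 1 and day 4 libraries of culture 27 stood apart from the other cultured libraries: single-copy island fragments held 35393.5 and 37050 RPM there against 2138 to 11371 in the other 10 libraries of the 3 cultures. Results that rest on them are given with and without them.

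On average, shore fragments had their lowest level in ES cell lines and their highest in muscle. The ES lines CGR8, RD1 and E14Tg2 held 31484.5, 29487.5 and 27231 RPM in shore fragments (29401 ± 2128, SD, n = 3). Proliferating myoblasts held 34495, 38229 and 42070 (38265 ± 3788, n = 3), so that each myoblast library lay above each ES line. Muscle libraries held 57225, 68567 and 39647 (55146 ± 14571, n = 3), and the C57BL/6J library, the lowest, overlapped the myoblasts. Passage 0 myoblasts held 32989 in culture 26 and 28724 in culture 27, and the latter lies within the range of the ES lines. Freshly isolated cells held 38088 without and 33940 with injury.

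With 3 against 3 libraries the exact permutation test cannot go below 0.1. Myoblasts exceeded ES cells by 8864 RPM and muscle exceeded ES cells by 25745, both without overlap and both at that limit (exact two-sided permutation, p = 0.1; 0.35 after Benjamini-Hochberg adjustment over 7 comparisons). Muscle exceeded myoblasts by 16882 on average, with overlap (exact permutation p = 0.2), and by 1383 when only the C57BL/6J muscle library was used, a setting added after the values were seen. That library exceeded the ES mean by 10246. A test over ES cells, myoblasts and muscle together, over all assignments of the 9 libraries, gave an exact permutation p of 0.0214 for the shore level (0.0536 after Benjamini-Hochberg adjustment over the 5 measures tested this way). The other measures had exact permutation p of 0.0107 for the ratio to open sea reads (adjusted 0.0536), 0.0464 for the level per read in autosomal fragments under the length limit (adjusted 0.0774), 0.0679 for the ratio to island reads (adjusted 0.0848) and 0.911 for the number of detected members (adjusted 0.911). None of the 5 passed 0.05 after adjustment.

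**Figure D1:**
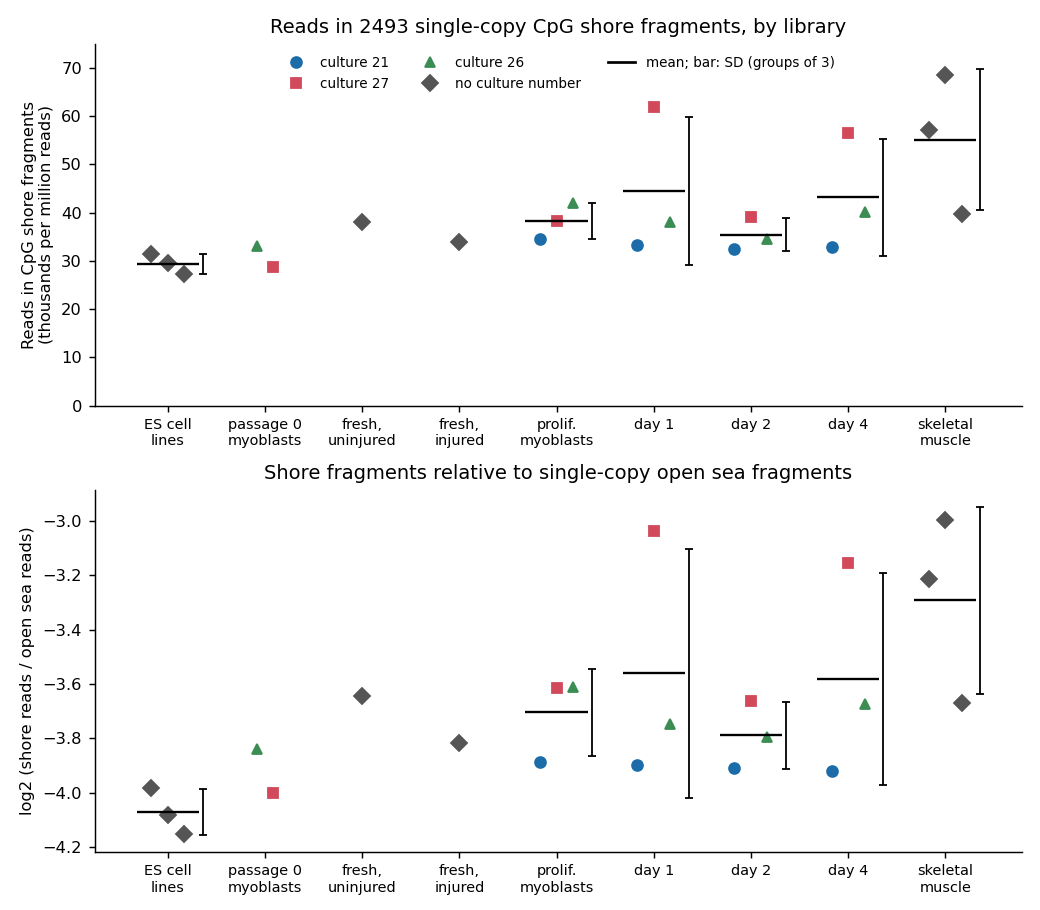
Shore reads by library. The upper panel plots RPM, divided by 1000, in the 2493 shore fragments, the lower panel log2 of shore over open sea reads, both by group with 1 point per library coloured by culture and, for groups of 3, the mean with SD. Each ES line lies below each proliferating myoblast and each muscle library in both panels, and the day 1 and day 4 libraries of culture 27 stand well above those of cultures 21 and 26, within the range of muscle.

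Ratios taken within a library do not depend on scaling between libraries. The log2 ratio of shore to open sea reads averaged -4.07 in ES lines, -3.71 in myoblasts and -3.29 in muscle. It was thus 0.37 higher in myoblasts than in ES cells and 0.78 higher in muscle, again without overlap (exact permutation p = 0.1 each). Muscle exceeded myoblasts by 0.41, with overlap (exact permutation p = 0.3). Against islands the order turned: the log2 ratio of shore to island reads averaged 2.91 in ES lines, 2.51 in myoblasts and 1.11 in muscle. The muscle difference was -1.80 from ES cells and -1.40 from myoblasts, both without overlap (exact permutation p = 0.1). Island fragments held 3224, 5405 and 3409 RPM in the ES lines and 28661, 40413 and 13456 in muscle, a larger factor than for shores. As a median over fragments instead of summed reads, both differences were close to 0 (0.0016 and 0.033). However, only 4286 of the 13765 island fragments had a read in muscle or ES libraries, and 4096 in muscle or myoblasts. The median island level was therefore 0 in these libraries, so this measure cannot compare shores with islands. Myoblasts fell on either side of the ES lines, with 2579 island RPM in culture 21, 11371 in culture 27 and 10284.5 in culture 26.

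No difference in the number of detected shore fragments was found. With all libraries thinned to 6237851 reads, 816, 976 and 902 members had 5 or more reads in the ES lines, 632, 990 and 970 in myoblasts and 956, 949 and 940 in muscle. None of the 7 comparisons of these numbers had an exact permutation p under 0.4. The 10 members with most reads held 15.0% to 18.4% of shore reads in the ES lines, 25.1%, 17.3% and 22.2% in myoblasts and 11.5%, 11.4% and 14.6% in muscle. Shore reads were therefore spread more evenly over members in muscle.

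In RPM the rise was seen in members under 1000 bp. Fragments of 200 to 499 bp held 15683 RPM on average in ES lines, 23438 in myoblasts and 34333 in muscle. Members of 21 to 199 bp held 519, 769 and 1687, and those of 500 to 999 bp held 9050, 10568 and 16107. Members of 1000 bp or more held 4149, 3489 and 3020 in the same order, while open sea fragments of that length held 71522, 53731 and 33963. Relative to open sea fragments of equal length, shore reads were thus higher in muscle in the longest class too: the log2 ratio averaged -4.10 in ES lines, -3.96 in myoblasts and -3.49 in muscle, without overlap between ES lines and muscle. By place, promoter members held 9686 RPM on average in ES lines, 14620 in myoblasts and 24771 in muscle, while exon members held 8368, 10289 and 9902. Open sea fragments of 200 to 499 bp ranged from 212977 to 257790 RPM in the ES lines, from 226581 to 289345 in myoblasts and from 259453 to 286720 in muscle. Within that length class the log2 ratio of shore to open sea reads was -3.80, -3.92 and -3.96 in the ES lines, -3.68, -3.35 and -3.47 in myoblasts and -2.96, -2.74 and -3.46 in muscle, again without overlap between ES lines and either group.

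**Figure D2:**
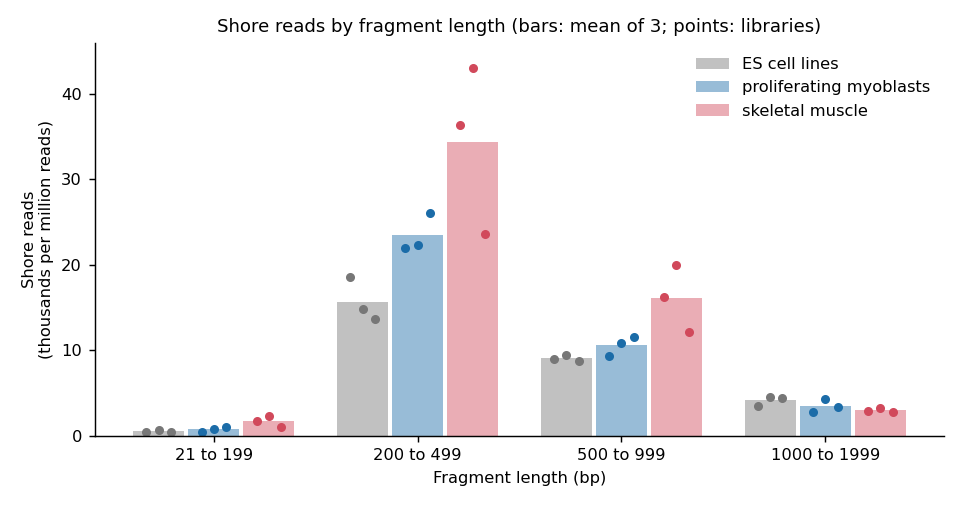
Shore reads by fragment length. Bars are group means and points are libraries, in RPM divided by 1000, for ES lines, myoblasts and muscle (3 each) in 4 length classes. Mean RPM in members of 200 to 499 bp is lowest in ES lines and highest in muscle, and in members of 1000 bp or more the order is the opposite.

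Single fragments were tested with edgeR over the whole table, and a member is called when its Benjamini-Hochberg adjusted p is under 0.05. Folds from edgeR use TMM scaling, so they can differ from ratios of RPM. The median log2 fold of all tested fragments was -0.08, -0.34 and -0.13 for myoblasts against ES cells, muscle against ES cells and muscle against myoblasts, and -0.28, -1.14 and -0.65 with scaling by library totals. Members are read against these medians. Counts of calls over members that passed the low-count filter describe those members only.

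Myoblasts differed from ES cells in a minority of shore fragments, more of them higher than lower. Of 912 tested members, 86 were called higher and 50 lower (14.9%), against 19.9% called among all 25152 tested fragments, 8.22% of which were higher and 11.7% lower. The median log2 fold change was 0.67 for tested members, 1.57 for islands and -0.15 for open sea. The number called varied with the libraries used: it was 261 with DESeq2, 395 without myoblast library 1, 78 without myoblast library 3 and 57 without ES line 3. Over the whole set, the mean level was higher in myoblasts for 992 members and lower for 805, and 696 had no reads in either group. Among 799 tested members with at least 1 RPM on average in both groups, 63 were higher and 33 lower.

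Dhps, which encodes deoxyhypusine synthase, the enzyme that starts hypusine formation on translation factor eIF5A, had the largest change. A 411 bp promoter fragment (chromosome 8, 87597823 to 87598233) held 1.02, 0.0992 and 0 RPM in the ES lines, 336, 316 and 410 in myoblasts and 41.1, 73.8 and 64.8 in muscle. It was all but absent from ES lines, highest in myoblasts and intermediate in muscle, and the change over ES cells was 9.66 ± 1.18 (log2, SE; edgeR adjusted p = 0.000384). Zfp30, a zinc finger gene whose fragment lies in an exon, held 0.286, 0 and 0.119 RPM in the ES lines, 30.0, 36.5 and 22.5 in myoblasts and 105, 95.5 and 88.6 in muscle. It rose by 7.53 ± 0.87 in myoblasts (edgeR adjusted p = 0.000297), with groups that do not overlap and muscle above both. Lmtk3, a kinase gene expressed in brain, held 0.49, 0.298 and 0 RPM in ES lines against 67.7, 38.6 and 68.1 in myoblasts at a 664 bp promoter fragment (chromosome 7, 53043224 to 53043887), a rise of 7.73 ± 0.94 (edgeR adjusted p = 0.000373).

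Ptchd2, a gene of the patched domain family, had 3 reads in all in the ES lines at a 228 bp exon fragment (chromosome 4, 147646427 to 147646654) and 62.0, 56.9 and 16.1 RPM in myoblasts. The ratio of the pooled levels was 685 with a 95% counting interval of 234 to 3327 (edgeR adjusted p = 0.000273). Pcp4l1, a relative of the calmodulin regulator Pcp4, rose at an intron fragment of 477 bp (chromosome 1, 173124372 to 173124848) from 0.612, 1.19 and 0.597 in the ES lines to 54.6, 259 and 49.3 in myoblasts (edgeR log2 change 7.26 ± 0.77, adjusted p = 0.000213). Culture 27 was the highest of the myoblasts there. Across all members, 4 (at Ptchd2, Zfp30, Lmtk3 and an intron of Ap1ar) had at most 1 RPM in every ES line and at least 10 in every myoblast library, and 3 of these had at least 10 in every muscle library too. No member showed the reverse. These limits were chosen after values were seen. The counts cover shore members only, so nothing particular to shores is read from them. The exception in muscle was Ap1ar (chromosome 3, 127538879 to 127539474), with 104, 0 and 176 RPM in muscle libraries 1, 2 and 3.

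Fewer fragments were lower in myoblasts, and those named kept some reads. Kctd11, an adaptor of a ubiquitin ligase that restrains Hedgehog signalling, names an 1820 bp fragment 1827 bp upstream of it (chromosome 11, 69696314 to 69698133). The fragment also overlaps Acap1 or the 2000 bp upstream of Acap1. It held 45.1, 89.8 and 88.8 RPM in the ES lines, 0.634, 4.86 and 4.95 in myoblasts and 0.277, 0.334 and 0.796 in muscle. It fell by 4.29 ± 0.69 in myoblasts (log2, SE; edgeR adjusted p = 0.00174) and lay lower still in muscle. Tet3, an enzyme that oxidises methylated cytosine, held 4.12, 25.0 and 34.3 in the ES lines against 0.181, 1.24 and 1.95 in myoblasts at an intron fragment of 409 bp (chromosome 6, 83389847 to 83390255). It fell by 4.01 ± 0.91 (edgeR adjusted p = 0.012), a call that ended without ES line 3 (0.0505), without myoblast library 2 (0.0631) or with the CGR8 repeat kept apart (0.0772).

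Slc8a3, the sodium-calcium exchanger of brain and skeletal muscle, and Slitrk1, a membrane protein of neurons, were lower in myoblasts than in both ES lines and muscle. The Slc8a3 intron fragment (805 bp; chromosome 12, 82431450 to 82432254) held 48.2, 56.9 and 59.9 RPM in the ES lines, 0.725, 8.48 and 5.47 in myoblasts and 33.0, 33.1 and 26.6 in muscle. The Slitrk1 fragment held 285, 174 and 128 in the ES lines, 3.26, 38.9 and 16.8 in myoblasts and 168, 161 and 64.6 in muscle. Both fell in myoblasts, by 3.44 ± 0.69 (edgeR adjusted p = 0.00616) and 3.38 ± 0.76 (edgeR adjusted p = 0.0116), and the Slitrk1 call ended without ES line 1 (0.0573) or myoblast library 3 (0.0908). Sidt2, a lysosomal membrane protein, fell by 3.79 ± 0.76 at a 1532 bp promoter fragment (edgeR adjusted p = 0.0063; 0.0512 without myoblast library 3).

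**Figure D3:**
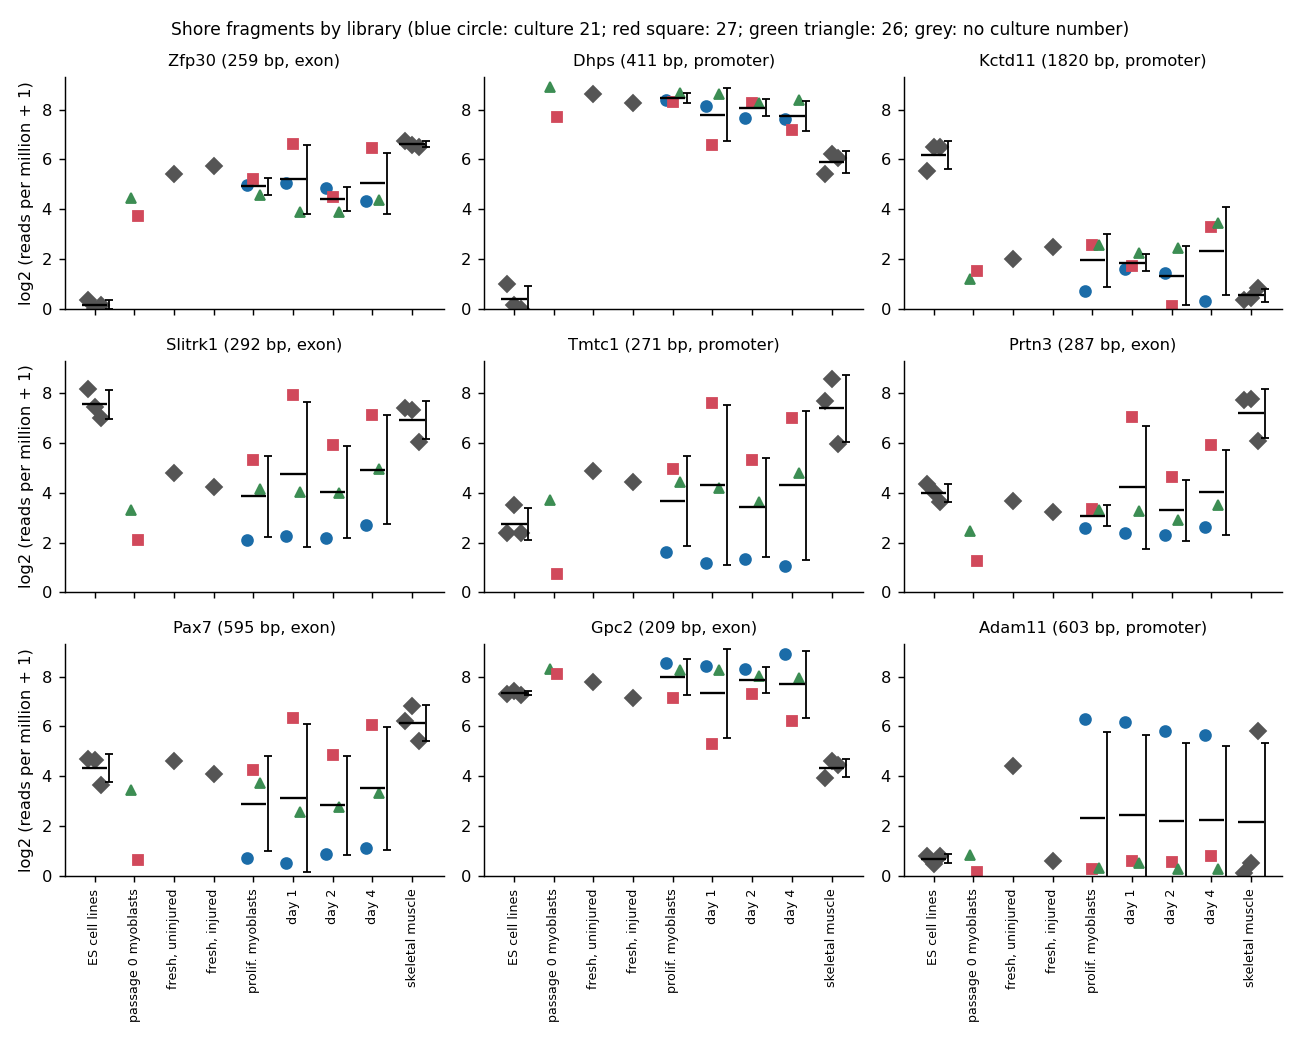
Levels of 9 shore fragments, named by gene, as log2 of RPM plus 1 in each library, with mean and SD for groups of 3. Zfp30 and Dhps are near 0 in the ES lines, Kctd11 is high only there, Slitrk1, Tmtc1 and Pax7 are lower in myoblasts of culture 21 than of culture 27, Gpc2 is lowest in muscle, and Adam11 is high in the 4 culture 21 libraries.

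Muscle differed from ES cells in most tested shore fragments, and most calls were higher in muscle. Of 942 tested members, 578 were called higher and 94 lower, or 61.4% and 9.98%. Among all 22980 tested fragments 59.1% were called, with 24.4% higher and 34.6% lower. The median was 2.20 for tested members, against -0.34 for all fragments, 4.36 for islands and 0.20 for open sea. With library totals the calls were 475 higher and 155 lower, which lowered the share of higher calls from 86.0% to 75.4%, and the median of members was 1.37. Over the whole set, the mean level was higher in muscle for 969 members and lower for 806, and 718 had no reads in either group. The count called lay between 577 and 722 when each library was left out in turn.

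**Figure D4:**
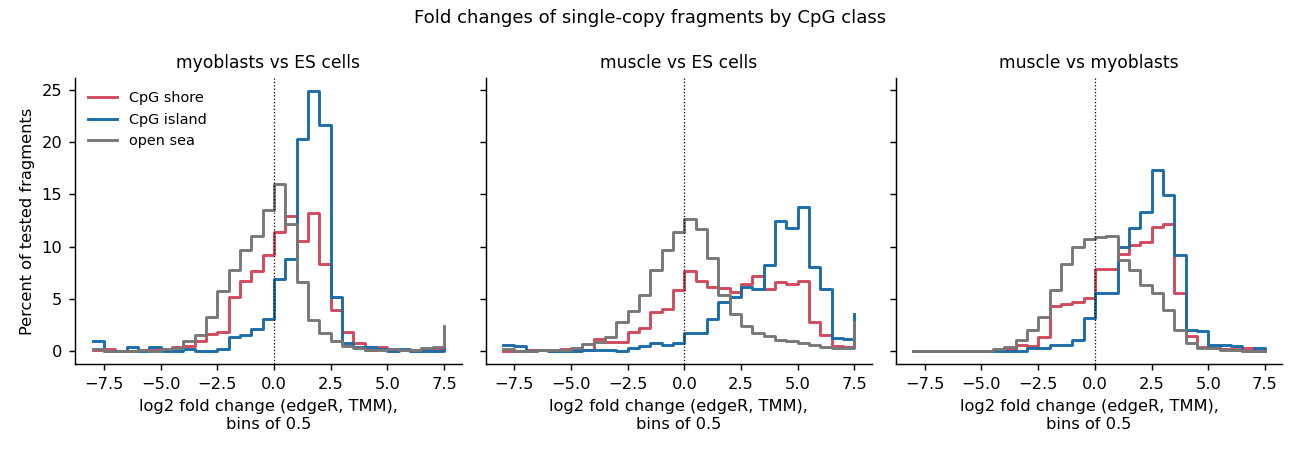
Distribution of edgeR log2 fold changes for tested single-copy shore, island and open sea fragments in bins of 0.5, as percent of the tested fragments of a class, for 3 comparisons. The outermost bins also hold values beyond the axis. Shore fragments lie between open sea and island fragments in each panel, and their distribution is broad for muscle against ES cells, with a median of 2.20.

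Rrp9, a protein of the U3 particle that processes ribosomal RNA, held 151, 171 and 83.0 RPM in muscle against 0.122, 0.992 and 0.358 in ES lines at an upstream fragment of 396 bp (chromosome 9, 106377336 to 106377731). It rose by 9.10 ± 0.79 (edgeR adjusted p = 1.96e-05). Zfp30 rose by 9.82 ± 0.74 (edgeR adjusted p = 1.1e-05), with the muscle levels given above. Ptchd2 held 79.2, 98.2 and 61.8 in muscle, a ratio of 1132 to the 3 reads of the ES lines (counting interval 387 to 5494). Pcp4l1 held 239, 198 and 131 and rose by 8.74 ± 0.58 (edgeR adjusted p = 9.33e-06). These comparisons share the ES lines with the one before.

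Gpc2, a cell surface heparan sulfate proteoglycan, was among the named lower members. Its 209 bp exon fragment (chromosome 5, 138718482 to 138718690) held 14.1, 23.4 and 20.6 RPM in muscle, 156, 170 and 153 in the ES lines and 368, 141 and 307 in myoblasts, so that muscle lay below both. It fell by 2.22 ± 0.37 against ES cells (edgeR adjusted p = 0.000799). B4galt3, a galactosyltransferase, fell by 2.45 ± 0.43 at a 1430 bp promoter fragment (edgeR adjusted p = 0.0012), from 40.5, 51.4 and 46.8 RPM in the ES lines to 2.87, 3.46 and 8.66 in muscle. Kctd11 fell by 6.47 ± 0.51 (edgeR adjusted p = 1.25e-05). Klhl36 and Zbtb39, both with a BTB domain, fell by 3.97 ± 0.58 and 2.62 ± 0.51 (edgeR adjusted p = 0.000383 and 0.00186), and the Zbtb39 call ended with the CGR8 repeat kept apart (0.06).

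Muscle also differed from myoblasts mostly towards higher levels. Of 928 tested members 331 were called higher and 45 lower, or 35.7% and 4.85%, against 13.7% and 17.4% of all 20274 tested fragments, of which 31.1% were called. The median was 1.67 for tested members, -0.13 for all fragments, 2.41 for islands and 0.37 for open sea. Library totals gave 126 higher and 80 lower calls, and the share of higher calls fell from 88.0% to 61.2%. No member was called without muscle library 1 or without muscle library 2, although the median fold stayed at 1.77 and 1.41 (463 and 408 members had an unadjusted p under 0.05). Without muscle library 3, the only one of the myoblasts' strain, 399 higher and 33 lower were called, with a median of 2.03. The part of strain in these calls was not tested. Without myoblast library 3 or 2, 97 and 176 were called. With the sample number as a block, which joins unrelated samples here, 70 were higher and 5 lower. Over the whole set, the mean level was higher in muscle for 994 members and lower for 739, and 760 had no reads in either group. Each of the 26 calls named for this comparison ended without muscle library 1 and without muscle library 2 (edgeR adjusted p of 0.0587 to 0.134).

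Prtn3, the neutrophil protease proteinase 3, had the largest rises named, at 2 neighbouring fragments that share a CCCGGG site. The 139 bp intron fragment held 95.1, 96.2 and 32.2 RPM in muscle and 1.72, 4.44 and 2.60 in myoblasts. The 287 bp fragment next to it (chromosome 10, 79345379 to 79345665) held 213, 217 and 65.6 in muscle and 5.07, 9.10 and 8.98 in myoblasts. They rose by 5.34 ± 0.72 and 5.07 ± 0.71 (edgeR adjusted p = 0.012 each), and muscle library 3 was the lowest of the muscle libraries at both. Acaa1a, a thiolase of peroxisomal fatty acid breakdown, held 48.4, 53.8 and 16.7 in muscle and 0.181, 5.48 and 1.95 in myoblasts at an upstream fragment, a rise of 4.74 ± 1.02 (edgeR adjusted p = 0.0136; 0.0531 without myoblast library 3). Tmtc1, an enzyme that adds mannose to cadherins, held 202, 381 and 60.3 in muscle and 2.08, 30.1 and 20.4 in myoblasts at its promoter fragment, a rise of 4.39 ± 1.02 (edgeR adjusted p = 0.0159; 0.0556 without myoblast library 3). Naa50, an N-terminal acetyltransferase, rose by 4.35 ± 1.02 at a promoter fragment of 364 bp (edgeR adjusted p = 0.0164; 0.0547 without myoblast library 2).

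The named lower members were low in every muscle library. Yif1a, a protein of transport between endoplasmic reticulum and Golgi, held 3.88, 2.56 and 4.78 RPM in muscle and 37.8, 20.6 and 44.8 in myoblasts at a coding exon fragment, and fell by 2.76 ± 0.58 (edgeR adjusted p = 0.0133). Kif21a, a kinesin motor, held 11.7, 6.13 and 12.3 in muscle and 122, 48.8 and 61.9 in myoblasts at its intron fragment, and fell by 2.55 ± 0.61 (edgeR adjusted p = 0.0174). In both the groups do not overlap. Gpc2 fell by 3.36 ± 0.61, B4galt3 by 3.29 ± 0.57 and Aagab, an adaptin-binding protein, by 2.69 ± 0.57 (edgeR adjusted p = 0.012, 0.012 and 0.0136), and Gpc2 and B4galt3 were also lower than in ES cells.

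Among muscle regulators, Pax7, the transcription factor of satellite cells, has 3 members, of which 1 was tested in muscle against myoblasts. This 595 bp exon fragment (chromosome 4, 139385485 to 139386079) held 72.5, 113 and 41.1 RPM in muscle and 0.634, 17.9 and 12.4 in myoblasts. The ES lines held 24.7, 24.1 and 11.7 there and overlapped the myoblasts. Pax7 rose by 3.62 ± 0.97 in muscle over myoblasts (edgeR adjusted p = 0.024, and 0.0699 without myoblast library 3 and 0.0571 without myoblast library 2). Mef2c, a transcription factor of muscle differentiation, had 48.7, 18.1 and 39.5 in muscle, 10.5, 20.0 and 25.9 in myoblasts and 6.41, 6.84 and 4.78 in the ES lines at a fragment upstream of 1 of its starts and inside an intron (chromosome 13, 83661913 to 83662523). Muscle and myoblasts overlapped and the change of 1.45 ± 0.54 did not pass (edgeR adjusted p = 0.0672; DESeq2 adjusted p = 0.0299), while both groups were called higher than ES cells, by 3.34 ± 0.46 in muscle and by 1.79 ± 0.51 in myoblasts. The latter call (edgeR adjusted p = 0.0351) ended under 8 alternatives, among them without ES line 3 (0.18) and with library totals (0.0826). Pax3 had 8.69, 5.13 and 8.06 in muscle and 14.9, 12.2 and 5.47 in myoblasts at an exon fragment of 1429 bp, with a log2 change of -0.11 ± 0.58 (edgeR adjusted p = 0.906) whose sign turned under several alternatives. Of the 7 tested members at muscle regulator genes, 6 were higher in muscle than in ES cells (median 2.74), 2 in muscle than in myoblasts (1.38) and 2 in myoblasts than in ES cells (1.39), with none lower. Of all tested shore members 61.4%, 35.7% and 9.43% were higher in these comparisons (medians 2.20, 1.67 and 0.67), and of all tested fragments 24.4%, 13.7% and 8.22%. Nothing particular to this list, or to those that follow, is read from such counts. Library totals gave 4, 1 and none. Myf5, Myog, Dnmt3a and Hdac4 have no member, and the member at Myod1 was not tested.

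Among DNA methylation and chromatin genes, Dnmt3b, a methyltransferase that sets new methylation, held 25.5, 30.1 and 11.7 RPM in muscle, 1.27, 9.72 and 6.90 in myoblasts and 0.775, 2.78 and 1.43 in the ES lines at a promoter fragment of 196 bp (chromosome 2, 153475769 to 153475964). It rose by 2.63 ± 0.75 over myoblasts (edgeR adjusted p = 0.0294), a call that ended with library totals (0.0929) or without myoblast library 3 (0.0712) or 2 (0.0598), and by 4.70 ± 0.63 over ES cells (edgeR adjusted p = 0.000229). Phc2, a Polycomb subunit, held 196, 334 and 108 in muscle and 2.72, 30.2 and 32.5 in myoblasts at an intron fragment, and rose by 4.01 ± 0.89 (edgeR adjusted p = 0.0147). The ES lines held 262, 168 and 104 RPM there, so muscle lay above myoblasts but overlapped the ES lines. The Tet3 fragment described above fell in muscle against ES cells as well, by 3.59 ± 0.73 (edgeR adjusted p = 0.00246). The 438 bp Tet3 fragment next to it held 4.28, 2.18 and 2.27 in the ES lines, 0, 2.69 and 1.17 in myoblasts and 3.79, 3.01 and 2.39 in muscle, and was called neither in muscle nor in myoblasts against ES cells (edgeR adjusted p = 0.214 and 0.407). Of the 7 tested members at genes of this list, 4 were higher and 1 lower in muscle than in ES cells, 4 were higher and none lower in muscle than in myoblasts, and none was higher and 2 were lower in myoblasts than in ES cells, with medians of 3.07, 2.56 and 1.69. In the last of these the median and the calls differ in sign, and with DESeq2 it had 3 higher and 2 lower. Library totals left 1 higher in muscle than in myoblasts.

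HOX genes pattern the body axis. All 7 tested HOX members were called higher in muscle than in ES cells (median 2.24, against 2.20 over tested shore fragments), 4 were higher in muscle than in myoblasts (median 2.18 against 1.67) and 2 were higher in myoblasts than in ES cells (median 0.33 against 0.67). Library totals gave 3, none and 2 higher, and 1 lower in muscle against myoblasts. The list has 23 members in all, most of which were not tested. At Hoxc5 an exon fragment of 367 bp (chromosome 15, 102846100 to 102846466) held 5.30, 15.1 and 5.97 RPM in the ES lines, 376, 182 and 258 in myoblasts and 102, 89.9 and 95.5 in muscle. It rose by 5.30 ± 0.68 in myoblasts (edgeR adjusted p = 0.000509) and by 4.31 ± 0.48 in muscle (edgeR adjusted p = 8.1e-05), and myoblasts lay above muscle in each library. Hoxa9 rose by 3.25 ± 0.85 in muscle over myoblasts, from 0.815, 10.2 and 8.20 to 65.1, 24.6 and 23.6 (edgeR adjusted p = 0.0224, and 0.0604 without myoblast library 3 and 0.0561 without library 2). The ES lines held 28.4, 13.1 and 12.3 RPM there, above each myoblast library and overlapping muscle.

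Other homeobox genes made the largest list, with 82 members. In muscle against ES cells 24 of 33 tested were higher and 1 lower (median 3.16), in muscle against myoblasts 12 of 34 were higher and none lower (median 1.39), and in myoblasts against ES cells 6 of 32 were higher and 1 lower (median 1.00). The shares higher among all tested members were 61.4%, 35.7% and 9.43% in this order, with medians of 2.20, 1.67 and 0.67, and whether the list differs from them was not tested. Library totals gave 20 higher and 2 lower, 5 and none, and 4 and none. Lhx2, a regulator of forebrain and eye, held 9.92, 23.7 and 12.1 RPM in the ES lines, 65.0, 194 and 125 in myoblasts and 291, 415 and 123 in muscle at a promoter fragment of 578 bp (chromosome 2, 38205505 to 38206082). It rose by 3.21 ± 0.50 in myoblasts (edgeR adjusted p = 0.00153) and by 5.10 ± 0.62 in muscle (edgeR adjusted p = 0.000137). Irx1 rose by 4.17 ± 0.87 in muscle over myoblasts, from 4.80, 49.1 and 15.7 to 313, 321 and 97.7 (edgeR adjusted p = 0.0131), downstream of the gene. The ES lines held 23.5, 34.5 and 10.5 RPM there and overlapped the myoblasts. Six6, a regulator of eye and pituitary, fell by 1.53 ± 0.47 in myoblasts against ES cells, from 34.9, 59.4 and 42.0 to 6.97, 24.8 and 12.2 (edgeR adjusted p = 0.0474), and that call ended under most alternatives, among them without any single library except myoblast library 2.

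Of transcription factors of other families that steer development, 9 of 14 tested members were higher and none lower in muscle than in ES cells (median 2.51), and 4 of 13 were higher in muscle than in myoblasts (median 2.20). These counts stand against 61.4% and 35.7% higher among all tested members. Library totals gave 8 higher and 2 lower, and 1 higher. Eomes, a T-box factor of mesoderm and endoderm, held 74.6, 61.9 and 27.6 RPM in muscle, 1.09, 20.1 and 7.42 in myoblasts and 1.47, 4.66 and 1.43 in the ES lines, at a fragment that covers the start of the gene. It rose by 5.35 ± 0.66 over ES cells (edgeR adjusted p = 0.000145) and by 3.28 ± 0.89 over myoblasts (edgeR adjusted p = 0.0248; 0.0827 without myoblast library 3). Gata3 rose by 2.56 ± 0.57 and Runx3 fell by 2.95 ± 0.67 in myoblasts against ES cells (edgeR adjusted p = 0.0111 and 0.0127). Gata3 was lost without ES line 3 (0.0737), and Runx3 without ES line 1 (0.0582), ES line 3 (0.0505) or myoblast library 3 (0.0678). Of signalling genes, 15 of 17 tested members were higher in muscle than in ES cells (median 3.11) and 8 of 17 higher in muscle than in myoblasts (median 1.92), with none lower, against the same shares of all tested members, while library totals gave 11, and 3 with 1 lower. Hes7, an oscillating Notch target of somite formation, rose by 5.38 ± 0.60 over ES cells, from 2.12, 3.77 and 3.46 to 79.5, 96.8 and 29.0 (edgeR adjusted p = 7.97e-05). Gdf7, a bone morphogenetic protein, rose by 3.71 ± 0.72 over myoblasts, from 0.725, 2.79 and 1.69 to 21.6, 14.2 and 6.97 (edgeR adjusted p = 0.0123).

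Lists of genes of other cell types held few tested shore members. In muscle against ES cells, 3 of 4 endothelial, 4 of 5 adipocyte and 4 of 4 epithelial members were higher and 1 endothelial and 1 adipocyte member were lower, and the only tested neural member, at the guidance gene Slit2, was higher, where 61.4% of all tested members were higher. Tie1, an endothelial receptor, rose by 2.69 ± 0.60 in muscle over myoblasts, from 12.1, 57.7 and 34.5 to 132, 179 and 112 (edgeR adjusted p = 0.0146). The ES lines held 134, 92.6 and 112 RPM at that fragment and overlapped muscle. The tested blood member, at Il10ra, and the Schwann cell list, with no tested member, gave no call in muscle. Both tested fibroblast and both tested cell cycle members, 1 of 2 contractile, 1 of 2 germ line, and the single tested calcium and pluripotency members were higher in muscle than in ES cells. Grb10, an imprinted adaptor of insulin receptor signalling, was the only tested imprinted member and was lower in muscle: its 316 bp fragment held 392, 262 and 306 RPM in the ES lines, 619, 422 and 373 in myoblasts and 80.6, 83.7 and 119 in muscle. It fell by 1.88 ± 0.47 against myoblasts (edgeR adjusted p = 0.019) and by 0.99 ± 0.36 against ES cells (edgeR adjusted p = 0.0351). The ES cell call ended without any single library except ES line 2.

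Called members differed in sequence and place. In muscle against ES cells 83.8% of 277 tested members with over 3 CpG per 100 bp were higher, 60.5% of 453 with 1.5 to 3 and 34.0% of 212 with fewer. In muscle against myoblasts these shares were 50.9%, 33.9% and 18.7%. Members that touch a CpG-rich stretch were higher in muscle than in ES cells in 77.5% of cases, those 1 to 500 bp away in 63.4% and those farther away in 27.04%, with 20.6% lower. By length the shares were 76.2%, 73.5%, 65.7% and 37.5% from the shortest to the longest class, and 21.7% of the longest were lower. Promoter members were higher in 70.3% of cases, intergenic in 65.8%, intron in 55.8% and exon in 42.8%. These features go together in the same fragments, and the part of each was not tested. Lower members had a median length of 1269.5 bp against 462.5 bp for higher ones.

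**Figure D5:**
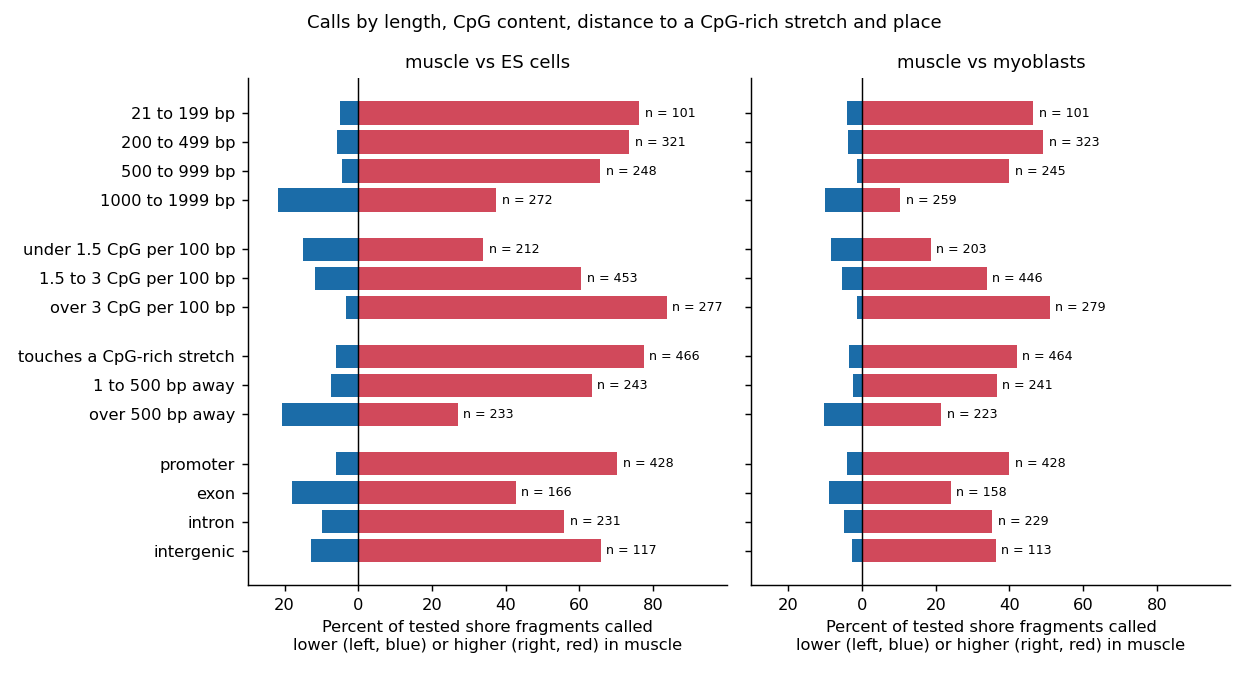
Percent of tested shore fragments called higher (right) or lower (left) in muscle, against ES cells and against myoblasts, by length, CpG content, distance to a CpG-rich stretch and place in genes. The number tested stands beside each bar. Among tested members, higher calls are most frequent in CpG-dense, short members that touch a CpG-rich stretch, and lower calls in the longest and most distant. The share of members that passed the low-count filter differs between these classes.

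Neighbouring shore fragments shared a CCCGGG site in 670 pairs among 1148 members. In muscle against ES cells both fragments were tested in 109 pairs and called in 57, of which 55 had the same direction and 2 opposite directions. In muscle against myoblasts both were called in 34 of 104 pairs, always in the same direction, and in myoblasts against ES cells in 10 of 94, 9 of them in the same direction. Of all tested members 71.3% were called in the first of these comparisons, 578 higher and 94 lower, so most calls had 1 direction, and whether neighbours agree beyond that was not tested.

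Differentiation gave few called shore fragments, and these depended on the fit. With unpaired edgeR 0 of 909, 871 and 937 tested members were called, against 0% of all fragments in each comparison. Unadjusted p was under 0.05 for 1, 3 and 9 members by edgeR and 4, 14 and 34 by DESeq2, which called none either. The differentiating libraries held 33395, 61955 and 38126 RPM in shore fragments at day 1 for cultures 21, 27 and 26, then 32527, 39169 and 34633 at day 2 and 32822, 56625 and 40126 at day 4. Cultures 21 and 26 were lower than their own myoblasts at each day, with differences of -1100 and -3944 at day 1, -1968 and -7437 at day 2 and -1673 and -1944 at day 4. Culture 27 was 23726 higher at day 1, 940 at day 2 and 18396 at day 4.

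The mean differences from myoblasts were therefore 6227, -2822 and 4927 at day 1, 2 and 4 (exact permutation p = 0.9, 0.5 and 0.7). With cultures 21 and 26 only, a setting chosen after the values were seen, they were -2522, -4702 and -1808. The median log2 fold change of tested members at day 1 was 0.56, and -0.60 without the day 1 library of culture 27. At day 4 it was 0.66, and -0.24 without the day 4 library of culture 27. Both settings kept the myoblast library of culture 27. In a fit added after the values were seen, with cultures 21 and 26 only and culture as a block, members had other medians. These were -0.29 at day 1, -0.37 at day 2 and 0.0067 at day 4. Island levels in the day 1 and day 4 libraries of culture 27 are given above, and their part in the shore level was not tested. Over the whole set, the mean was higher than in myoblasts for 1073, 476 and 1338 members at day 1, 2 and 4 and lower for 697, 1229 and 496. Without the library of culture 27 at each day it was higher for 435, 398 and 492 and lower for 1257, 1287 and 1184, so the majority turned at day 1 and day 4. That setting kept the myoblast library of culture 27. With cultures 21 and 26 only in both groups, the mean was higher for 498, 501 and 705 members and lower for 1086, 1066 and 864. At day 4 the split was then closer to even. Since the 3 cultures were followed over time, the fit with culture as a block applies. It called 6 members higher at day 4 against 0.174% of all fragments, and none at day 1 or 2. With cultures 21 and 26 only, a fit added after the values were seen, the block called 0 members at day 4, against 0.00901% of all fragments, and 0 at day 2, against 0% (43 and 145 members had an unadjusted p under 0.05), and 7 of 860 lower at day 1, against 0.187% of all fragments. Pou2f2, a lymphoid transcription factor, was called at day 4 by the block fit with all 3 cultures (edgeR adjusted p = 0.0489). Its upstream fragment of 468 bp held 0.631, 48.6 and 2.33 RPM at day 4 and 0.272, 2.48 and 0.781 in myoblasts. The rise was mostly that of culture 27. Sri, which encodes the calcium-binding protein sorcin, had 257, 288 and 285 RPM at day 2 and 177, 196 and 132 in myoblasts, without overlap, but the change of 0.90 ± 0.35 did not pass (edgeR adjusted p = 1).

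Myoblasts at passage 8 to 10 exceeded passage 0 cells of the same culture: passage 0 minus passaged cells was -9081 RPM in culture 26 and -9505 in culture 27. Over the 5 libraries the difference was 7408 without overlap (exact two-sided permutation p = 0.2; the smallest the design allows is 0.1). Without pairing edgeR called 0 of 897 tested members, against 0% of all fragments, and 37 members had an unadjusted p under 0.05 (90 by DESeq2, which called none). With culture as a block, which leaves out culture 21 for lack of a passage 0 library, 203 of 875 tested members were called higher and 1 lower, against 4.69% of all tested fragments. That fit rests on 2 libraries per group. The median was 1.08 without and 1.48 with the block, against 0.08 for all tested fragments without it. Over the whole set, 1382 members had a higher mean in passaged cells, 273 a lower one and 838 no reads.

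Gfra2, a receptor of glial-derived growth factors, held 22.9, 38.5 and 26.3 RPM in myoblasts of cultures 21, 27 and 26 and 8.40 and 1.42 at passage 0 in cultures 26 and 27, at an upstream fragment of 449 bp (chromosome 14, 71288923 to 71289371). The change was 2.47 ± 0.76 unpaired (edgeR adjusted p = 0.978) and 2.71 with the block (edgeR adjusted p = 0.00916). Mapk8ip2 and the receptor gene Erbb2 were lower in every passaged library, at 12.0, 35.5 and 16.5 against 68.1 and 59.9, and at 267, 397 and 184 against 521 and 538, and neither passed (edgeR adjusted p = 0.978 each).

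Freshly isolated precursor cells had 1 library per condition, so no test was made. Of 367 members with at least 20 RPM in either library, none was more than 4-fold higher and 2 were more than 4-fold lower after injury, or 0.545% against 0.264% of all 9094 such fragments past that fold in either direction. Folds carry a pseudocount of 1 RPM for this count. Adam11, a gene of the disintegrin family in brain, had 4 reads after injury and 127 without it at an upstream fragment of 603 bp (chromosome 11, 102620891 to 102621493), a ratio of 39.5 with a 95% counting interval of 15.0 to 147. Nuak2, a kinase of the AMPK family, had 199 against 1113 reads at an intron fragment, a ratio of 6.95 with an interval of 5.97 to 8.12. The highest members after injury stayed under 4-fold, with ratios of 3.35 (2.55 to 4.46) at Ptrf, the gene of cavin-1, and 2.72 (2.25 to 3.30) at Iffo2. These intervals cover counting error only.

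Within cultures, the Adam11 fragment was the member that split by culture. It held 78.2, 70.9, 54.9 and 50.03 RPM in culture 21 as myoblasts and at day 1, 2 and 4, and 0.207 to 0.725 in all 8 such libraries of cultures 26 and 27. No other of the 2493 members had at least 10 RPM in every library of 1 culture and at most 1 in every library of the others, nor the reverse. It was also at 54.5 in muscle library 3 and at 0.0925 and 0.446 in muscle libraries 1 and 2, and between 0.397 and 0.735 in the ES lines. This member was singled out after its values were seen, and the count covers shore members only.

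In the authors' deposited table for muscle against ES cells, 506 of 1732 listed members were higher and 195 lower at the authors' adjusted p under 0.05, against 38.8% of all listed fragments called (3919 higher, 6523 lower). In the authors' deposited table for muscle against myoblasts, 313 were higher and 117 lower of 1733, against 25.2% (2791 higher, 4002 lower). For myoblasts against ES cells the direction of the surplus differed from that found here: the authors' deposited table listed 102 higher and 128 lower of 1757, against 21.3%. Over all fragments that table had 2593 higher and 3267 lower, a surplus in the same direction as its members. Its median log2 fold change was 0.18 for listed members and 0.016 for all listed fragments, so members lay above all fragments there too. The authors' deposited tables called no member at day 4 of differentiation (0.0299% of all fragments) and 8 higher and 3 lower of 1655 members in myoblasts against passage 0 (1.55%).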

How the data were processed

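Reads of the AIMS-seq libraries, from an Illumina GA2, were mapped to mm9, per the labels' protocols; Bowtie 0.11.3 and DESeq are named in the submitters' processing notes. The authors deposited raw read counts per fragment. Their tables of log2 fold changes and adjusted p-values, per the file headers from a pooled DESeq fit, were used only where named. Counts were not thinned except for detection, and 184 other columns of per-sample values were not used. The technical repeat of CGR8 was summed with it.

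Single fragments were tested with edgeR 4.0.16 in R 4.3.3 (quasi-likelihood test with TMM scaling, and a filterByExpr minimum of 10 counts), with Benjamini-Hochberg adjustment over all tested fragments of the whole table and a threshold of 0.05. DESeq2 1.42.0, library totals, no filter, short autosomal fragments only, the sample number as a block and leaving out each library were alternatives. The test was also run on counts simulated for muscle against myoblasts, with planted changes and no outlying library. Its outcome is not given here, and it cannot judge calls that depend on single libraries. RPM is reads per 1000000 reads of a library. Libraries held 6237851 to 24505365 reads. PCR reads carry no molecular identifiers, so counting intervals (95%, exact) cover counting error only. Annotation was GENCODE on mm9, and sequences were read from that genome.

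Named genes were, for each of the 3 main comparisons, the 5 largest folds per direction among called members without overlap between groups and with a mean level not below the median of tested members, the called member with the smallest p per direction in each of 19 gene lists, and, for the other comparisons, the 2 members with the smallest p per direction. In muscle against myoblasts 10 fixed genes were added. Some members that this rule names are not reported here. The members and lists were chosen with earlier results of these data known. Numbers pair samples only where they mark the same culture. Deviations of day 1, 2 and 4 libraries from their group means correlated with those of their own culture's myoblasts (r of 0.30 to 0.80). With myoblasts of the other cultures r ran from -0.68 to 0.32. Unrelated samples could reach similar values, with 0.41 between myoblast library 1 and ES line 1. Passage 0 shares cultures 26 and 27, where r was 0.35 and -0.064. With 2 passage 0 libraries the deviations mirror each other, so these values cannot decide on pairing.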

Additional observations from a re-analysis of the deposited data

How the results depend on the processing

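Called shore fragments numbered 261 with DESeq2 and 226 without a filter in myoblasts against ES cells, and 57 to 395 when each library was left out. In muscle against ES cells they ranged from 577 to 722. In muscle against myoblasts they numbered 206 with library totals, 75 with the replicate block and 0 to 455 with each library left out. Without a filter 3, 6 and 2 were called at day 1, at day 4 and against passage 0. The block gave 6 at day 4 and 204 against passage 0, and leaving out a library gave 0 to 0 at each day of differentiation and against passage 0. The shore level difference ran from -2504 to 11776 at day 1, from -4707 to -919 at day 2, from -1790 to 10111 at day 4, from 6961 to 10748.5 in myoblasts against ES cells, from 5275 to 9540 against passage 0, from 19035 to 33495 in muscle against ES cells and from 10172 to 24631 in muscle against myoblasts. With cultures 21 and 26 only, chosen after seeing the data, it was -2522 at day 1 and -1808 at day 4. The replicate block with these 2 cultures called 7 at day 1 and 0 at day 2 and day 4. The shore to island difference as a median over fragments was 0.0016 and 0.033 for muscle against ES cells and myoblasts. Since the median island level was 0, these values describe shore fragments only. The difference in detected members ran from -97 to 82 (myoblasts against ES cells), 9.33 to 89.3 (muscle against ES cells; -12.7 at 1 read), -31.7 to 147 (muscle against myoblasts), -123 to 104.5 (day 1) and -87.5 to 210.5 (day 4). After injury 1 fragment passed 4-fold at a minimum of 50 RPM. Prtn3 (log2 change) at day 1 was -0.10 to 3.37 with a library left out, the lowest without culture 27's day 1 library. Pax3 in muscle against myoblasts was 0.040 without a filter, 0.026 with the block and -0.45 to 0.48 with a library left out. For single named fragments 931 values kept direction and call, 173 lost the call, 4 gained it and 6 changed sign. The causes were not tested. Members with few reads are limited by depth.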
